A study of Mus musculus with 24 samples.

Results

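The GABAergic neurons of the deep brain outside the striatum numbered 7003 nuclei in the 12 deep brain libraries, out of 127519 deep brain barcodes and 237224 barcodes in all 24 libraries of the series. They were chosen by their own counts of unique molecular identifiers (UMIs, which mark single captured RNA molecules). A nucleus was kept where it held more than 500 and fewer than 7000 genes and less than 20% mitochondrial UMIs, which left 124958 deep brain nuclei and 204925 in the series. It then needed at least 3000 UMIs (87893 nuclei) and at least 4 UMIs of *Gad1* and *Gad2* together (21397 nuclei), the genes of the enzymes that make GABA. Nuclei with more than 2 UMIs of the striatal gene *Rgs9* were left out (15561 remained), as were those with more than 1 UMI of the glutamate transporter genes *Slc17a6* and *Slc17a7* (14414 remained). Limits of at most 1 UMI of *Lhx6* and 3 of *Adarb2*, genes of cortical interneurons, left 7961. Leaving out any UMI of *Slc6a3*, *Tph2* or *Slc5a7*, which mark dopamine, serotonin and acetylcholine neurons, gave 7712. At most 2 UMIs of the oligodendrocyte genes *Mog*, *Mag* and *Mobp* gave 7236, and no UMI of the microglial gene *Csf1r* gave the 7003.

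GABAergic neurons are the main inhibitory cells of the brain. They make GABA from glutamate with the decarboxylases encoded by *Gad1* and *Gad2*, load it into synaptic vesicles with the transporter encoded by *Slc32a1*, and act through chloride channels and metabotropic receptors on their target cells. Outside the cortex and striatum they form projection nuclei such as the pallidum, the thalamic reticular nucleus and the substantia nigra reticulata, and local neurons of the hypothalamus, midbrain and pons, and the developmental transcription factors they keep in adult life differ between these places.

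Each library held nuclei of 1 mouse. The 6 mutants were homozygous for the *ret* allele of *Pdgfb* (*Pdgfb* ret/ret), which lacks the retention motif that holds platelet-derived growth factor B near the endothelial cells that secrete it, and which serves as a model of primary familial brain calcification. The 6 controls were heterozygous (*Pdgfb* ret/wt) and so carried the *ret* allele as well. It is a germ-line allele, present in all cells. No mouse of this comparison was described as treated. The first 3 mice of either genotype were aged 5 months plus 0 to 18 days. The remaining 3 were younger, at 4 months plus 7 to 24 days. Each mutant had a control of the same age to the day, which bore the same number for mice 1 to 4 and the other number for mice 5 and 6. The labels state no shared litter or preparation. All mutants and 5 controls were female, and control 6 was male. The deep brain samples pooled calcification-prone regions (pallidum, thalamus and hypothalamus, midbrain and pons), so the position of a nucleus within them is not known. The comparison between genotypes asked whether these inhibitory neurons differ in number, make-up or expression in a brain with vascular calcification.

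The libraries gave between 384 (control 4) and 728 (mutant 4) of these neurons, with 4580005 to 7616702 UMIs summed over them. A nucleus held 3001 to 43397 UMIs, with a median of 9688 UMIs and 4007 genes. The library medians ran from 8707 to 11648 UMIs and did not differ by genotype beyond the spread between mice (9450 ± 1075 in mutants and 10171 ± 1105 in controls, SD, n = 6 each, exact permutation test, two-sided, p = 0.264). Mitochondrial UMIs made up 0.104% ± 0.0564 in mutants and 0.0763% ± 0.0241 in controls (exact permutation p = 0.325). Among the 7003 nuclei there were 6958 distinct barcodes, and no pair of libraries shared more than 3. The doublet caller Scrublet marked 2.41% of them, against 5.65% of all kept deep brain nuclei.

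Of the 6 limits compared, the share of nuclei with *Slc32a1* was lower just outside than just inside at 5, and at the limit on *Csf1r* it was 82.8% inside and 84.7% outside. Those with exactly 4 *Gad1* and *Gad2* UMIs held a UMI of *Slc32a1* in 74.1% of 1104 nuclei, and those with 3 UMIs, just outside, in 67.6% of 1193. At 2 UMIs of *Rgs9* the share was 77.3% of 572, and at 3, outside, 73.8% of 279. At 1 UMI of *Slc17a6* or *Slc17a7* it was 80.7% of 916, and at 2, outside, 64.3% of 185. These values only describe where the limits fell.

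The nuclei carried the genes of GABA synthesis and release at high levels, as their selection on *Gad1* and *Gad2* required, and *Slc32a1*, which the selection did not use, went with them. Over the 12 libraries *Slc32a1* stood at 230 ± 34.4 CPM (SD, n = 12 for all levels here), where CPM are the UMIs of a gene per 1000000 UMIs of the summed nuclei. Beside them stood 2 other sets of deep brain neurons. The first was 3052 GABAergic nuclei (striatal type), under the same limits but with at least 5 UMIs of *Rgs9*. The second was 13529 nuclei (glutamatergic) with at least 3 UMIs of *Slc17a6* and at most 1 of *Gad1* and *Gad2*. This glutamatergic set shared the limits on genes, mitochondrial share, total UMIs, *Slc6a3*, *Tph2*, *Slc5a7* and glial genes. It had no limit on *Rgs9*, *Lhx6*, *Adarb2* or *Slc17a7*. *Slc32a1* was at 97.7 CPM in the *Rgs9* nuclei and 4.69 CPM in the *Slc17a6* nuclei. With every nucleus thinned to 3000 UMIs, 49.2% of the members held a UMI of *Slc32a1* (82.8% without thinning), against 27.3% of the *Rgs9* nuclei and 1.64% of the *Slc17a6* nuclei, whose median depths were 12762 and 11413 UMIs. *Nrxn3*, a presynaptic adhesion gene, was the most abundant release gene of its list at 7468 ± 340 CPM, and it was at 6709 and 2201 CPM in the other sets.

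The factor genes *Gata3* and *Sox14* stood above their levels in striatal-type neurons, and levels of other factors of the midbrain and pons are not given here. *Gata3*, a selector gene of inhibitory neurons of the midbrain and pons, was at 15.6 ± 5.40 CPM against 0.524 and 0.162 CPM in the *Rgs9* and *Slc17a6* nuclei, and 4.40% of thinned members held a UMI of it against 0.144% and 0.0705%. *Sox14*, found in inhibitory neurons of the diencephalon and midbrain, was at 24.4 ± 8.29 CPM against 0.639 and 1.54 CPM. *Foxp1*, abundant in striatal projection neurons, was lower than in the *Rgs9* nuclei, at 240 ± 29.5 against 2031 CPM. The peptide gene *Pnoc* (prepronociceptin) stood at 41.8 ± 7.90 CPM in the members and at 3.18 and 7.07 CPM in the other sets. *Gabra4*, a GABA receptor subunit gene, was at 109 ± 20.1 CPM against 480 CPM in the *Rgs9* nuclei. Because the sets were cut by their own counts, these levels are given as a description.

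The members were not of 1 kind. Clustering divided them into 22 groups, numbered by size from 1337 nuclei down to 24, and 21 of them were drawn from at least 8 libraries. A cluster received a name only where at least 3 markers of a fixed list were over 2-fold above the other members. The genes that define a cluster are the ones that made it, so the values below describe the clusters and test nothing. In the heat map of transmitter, regional and peptide genes, many clusters are set apart by a few genes, while *Gad1*, *Gad2* and *Slc32a1* run through all of them.

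**Figure D1:**
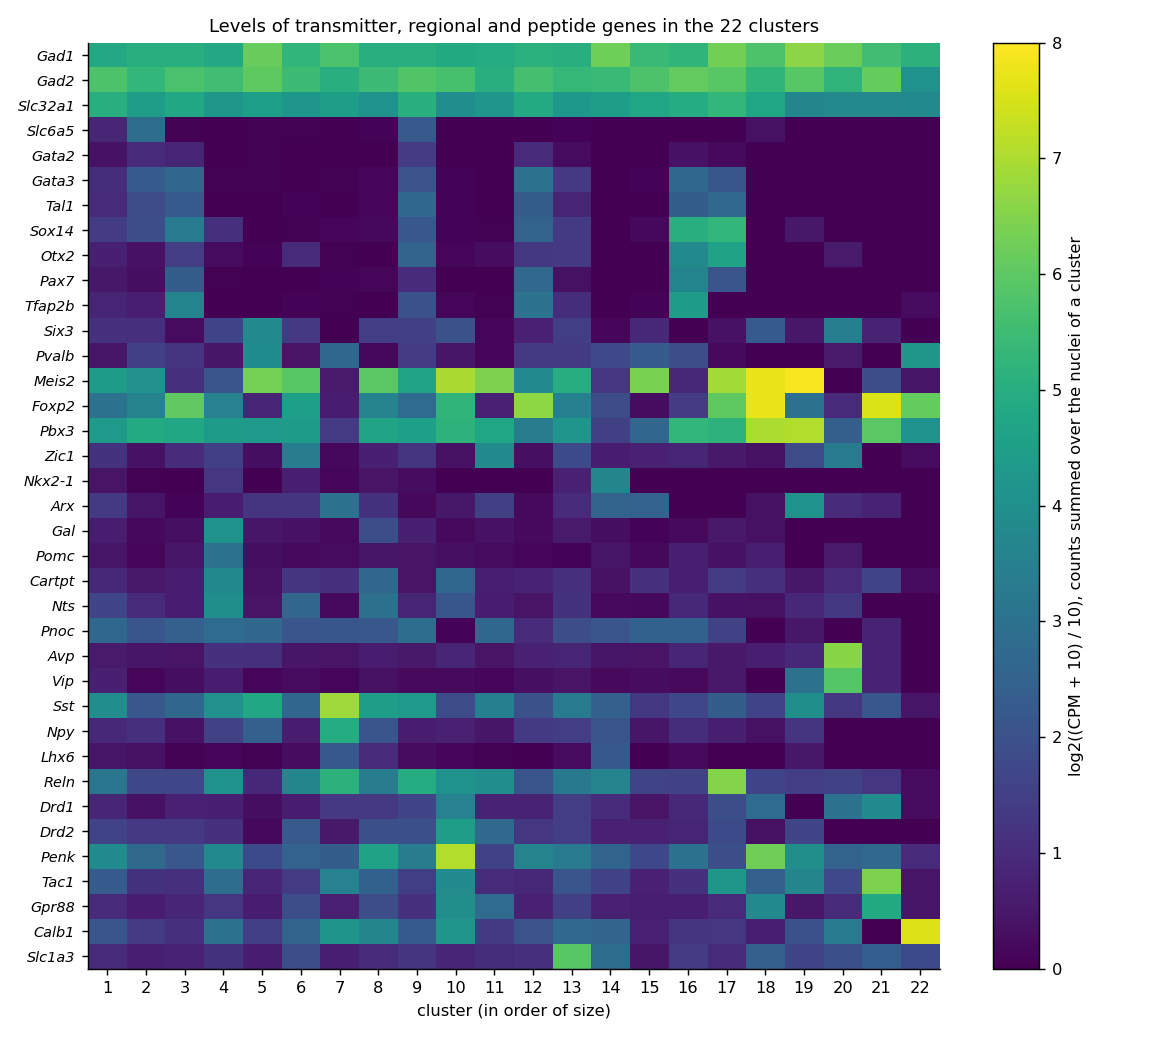
Heat map of the level of transmitter, regional and peptide genes (vertical axis) in the 22 clusters of the 7003 nuclei (horizontal axis), as log2 of CPM plus 10, divided by 10, over all nuclei of a cluster. The GABAergic genes fill their lines across the clusters, while *Avp* in cluster 20 (948 CPM), *Slc1a3* in cluster 13 (601 CPM) and *Sst* in cluster 7 (1131 CPM) reach their highest levels in 1 column.

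Several clusters carried genes of the midbrain, pons and thalamus. Cluster 5 (532 nuclei) was thalamic reticular-like, with 4 of 5 markers (*Six3*, *Spp1*, *Cacna1i* and *Pvalb*), and was led by *Fign* (859 CPM against 45.5 CPM in the other members), *Hs3st4* (3435 against 248 CPM), *Grm3* (1288 against 120 CPM), *Rnf220* and *Gm2115*. Over all members, without thinning, 323 nuclei held UMIs of both *Pvalb* and *Six3*, which is 32.6% of those with *Pvalb*, where 12.9% of all members held *Six3*. Clusters 3, 9, 16 and 17 were Gata-Tal-like, with 3 to 4 of the 5 factors *Gata2*, *Gata3*, *Tal1*, *Otx2* and *Sox14*. They differed in the rest. Cluster 3 (686 nuclei) was led by *Lef1* (217 against 16.2 CPM), *Tfap2b*, *Ntng1*, *Emx2os* and *Foxp2*, and cluster 9 (316 nuclei) by *Mecom*, *Nfib*, *Otx2os1*, *Cubn* and *Nfix*. In cluster 16 (105 nuclei) *Gbe1* led, followed by *Sox14* at 316 against 21.4 CPM, *Tfap2b*, the nicotinic receptor gene *Chrna3* and *Otx2*. Cluster 17 (95 nuclei) was led by *Otx2os1* (1081 against 32.7 CPM), *Gabrr2*, the gene of a retinal-type GABA receptor subunit (232 against 0.765 CPM), and the nicotinic subunit genes *Chrnb3*, *Chrna6* and *Chrna3*. Without thinning, 33.4% of the 796 nuclei with a UMI of *Gata3* held *Tal1* too, against 10.3% of all members.

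Glycine, the other fast inhibitory transmitter, marked cluster 2 (791 nuclei). It was led by *Slc6a5*, the neuronal glycine transporter, at 61.4 against 3.29 CPM and found in 15.8% of its nuclei, then by *Pax5*, *Ttn*, *Gm12239* and the glycine receptor gene *Glra1* (89.2 against 18.1 CPM). With 1 of 6 hindbrain glycinergic markers the cluster stayed unnamed. Of the 243 members with a UMI of *Slc6a5*, 88.5% also held *Slc32a1*, which carries both transmitters into vesicles, against 82.8% of all members. These counts were not thinned. Cluster 2, with 76.4% of the *Slc6a5* UMIs, had a median of 12774 UMIs per nucleus against 9688 over all members, and the part of depth was not tested. *Slc6a5* ranged from 1.04 to 36.7 CPM over the 12 mice, and both extremes were controls.

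Peptide genes led 2 unnamed clusters. Cluster 4 (583 nuclei) was led by *Gal* (157 against 4.92 CPM), *Pmch* (106 against 3.66 CPM), *Pomc* (71.6 against 2.49 CPM), *Cartpt* (123 against 12.0 CPM) and *Gm45194*, and held 2 of 9 hypothalamic markers. These peptides are made in hypothalamic neurons, some of which release glutamate. *Pomc* and *Pmch* were in few of its nuclei (4.63% and 5.49%), so their levels rested on few cells. Cluster 20 (32 nuclei) was led by *Avp*, the vasopressin gene (948 against 5.69 CPM), *Vip* (585 against 2.81 CPM, in 12.5% of its nuclei), *Nnat*, *9330185C12Rik* and *Prr5l*, with *Rgs16* and *Vipr2* next.

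Other clusters had clear leading genes without a matching list. The largest, cluster 1 (1337 nuclei), was also the least distinct, with *Fxyd6*, *Resp18*, *Tac2*, *Cdh23* and *Klhl1* 2.02-fold to 2.22-fold above the other members. Cluster 6 (523 nuclei) was led by *Prdm16* (290 against 25.2 CPM), *Ano1*, *Trpc4*, *Gm29478* and *Myo5b*, and cluster 8 (428 nuclei) by *Dpyd*, *Rrad*, *Gda* and *Rasal1*. Cluster 12 (150 nuclei) was led by *Gli3*, *Lef1*, *Spon1*, *Foxp2* and *Emx2os*, and cluster 15 (121 nuclei) by *Cdh23*, *Pax6*, *Kcns3* and *Pde11a*. Cluster 14 (131 nuclei) was led by *Egfr* (809 against 7.67 CPM), *Sfta3-ps*, *Igfbp4*, *Kit* and *Moxd1*, with *Nkx2-1*, a factor of the ventral telencephalon and hypothalamus, at 117 against 2.69 CPM. Cluster 11 (208 nuclei) was telencephalic-like, with 3 of 6 markers, *Meis2* and *Dlx6os1* among them, and was led by *Ano2*, *Adamtsl1*, *Cpa6*, *Matn2* and *Col23a1*.

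Some nuclei went against the label. Cluster 7 (453 nuclei, 6.47% of members) was cortical interneuron-like, with 3 of 7 markers (*Lhx6*, *Sst* and *Reln*), although the limit on *Lhx6* had been set to leave such cells out. It was led by *Eya4* (217 against 5.65 CPM), *Sox6*, *Npy*, *Cemip* and *Col19a1*, and *Sst* stood at 1131 against 111 CPM. Cluster 10 (212 nuclei) was striatal-like with 6 of 7 markers and led by *Pde1c*, *Prkch*, *Rarb*, *Gm49906* and *Penk* (1351 against 84.7 CPM). Cluster 18 (53 nuclei), telencephalic-like with 5 of 6 markers, also held 3 of 7 striatal ones and was led by *Chst9*, *6530403H02Rik*, *Gm49906*, *Tshz1* and *Foxp2*. Cluster 21 (30 nuclei) met the striatal and the telencephalic list with 3 markers each, stayed unnamed, and was led by the dopamine receptor gene *Drd3*, *Gm12068*, *Gpr149*, *Syt6* and *Folh1*. Cluster 13 (148 nuclei) carried all 5 astrocyte markers, with *Slc1a3*, *Ntsr2*, *Slc39a12* and *Nhsl1* among its leading genes, and Scrublet marked 73.0% of it as doublets. Cluster 22 (24 nuclei from 4 libraries) was Purkinje-like with 5 of 5 markers, led by *Car8*, *Pcp2*, *Itpr1*, *Atp2a3* and *Arhgef33*. Cluster 19 (45 nuclei) was led by *2610307P16Rik*, *Gm42047*, *Lgr6*, *Dleu2* and *Cpa6*, had the cell division genes *Mki67* and *Top2a* among its 10 leading genes, each in 15.6% of its nuclei. It held 5 of 6 telencephalic and 3 of 6 oligodendrocyte markers, and was left unnamed because cell division genes were among those that led it. Together these 7 clusters held 965 nuclei, 13.8% of the members, and 6038 nuclei remained without them.

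Mutants had a slightly larger share of these neurons than controls with the limits as set, and the difference was smaller with stricter limits on *Gad1* and *Gad2* or on *Rgs9*. Among deep brain nuclei with at least 3000 UMIs the share had a median of 8.47% in mutants, with a range of 7.79% to 8.93%, and of 7.50% in controls, with a range of 6.25% to 8.58%. The lowest controls were controls 4, 1 and 6, and the other controls lay within the range of the mutants. The means were 8.41% ± 0.386 and 7.47% ± 0.900 (SD, n = 6 each), and mutants exceeded controls by 0.944 percentage points (two-sided p = 0.0455 by exact permutation over 924 splits, where the smallest possible is 0.00216). The splits did not use the match in age. Each mutant was above its control of the same age except mutant 6 (7.79%, against 8.11% in control 5). Counting error alone spanned 5.66% to 6.88% around the share of control 4 and 8.29% to 9.61% around that of mutant 3 (95% Clopper-Pearson intervals). The difference was 0.489 points over all kept nuclei (exact permutation p = 0.216) and turned to -2.41 points among nuclei with at least 4 *Gad1* and *Gad2* UMIs (exact permutation p = 0.459). With at least 8 *Gad1* and *Gad2* UMIs asked of a member it was 0.0910 points (exact permutation p = 0.807), and with *Rgs9* at 0 it was 0.508 points (exact permutation p = 0.147). The denominator of *Gad1* and *Gad2* nuclei also holds the striatal-type neurons. The number of *Rgs9* nuclei per library ran from 138 to 582 in mutants and from 7 to 477 in controls (exact permutation p = 0.418). The part of these nuclei in the turn to -2.41 points was not tested. Leaving out 1 mouse gave 0.700 to 1.17 points, with exact permutation p from 0.0108 to 0.0931, and the call was lost without any of mutants 1 to 5 or controls 1, 4 and 6.

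**Figure D2:**
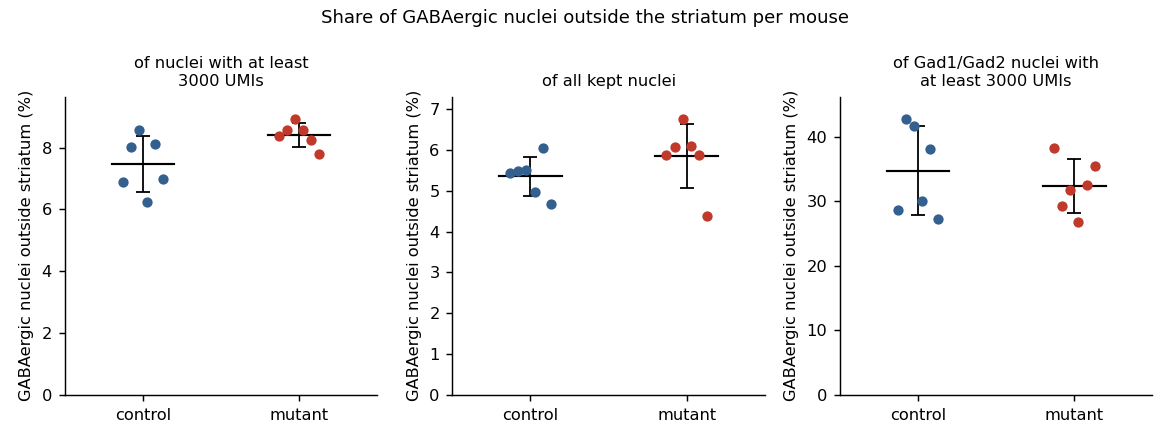
Share of GABAergic neurons outside the striatum in each deep brain library (points, 1 per mouse; horizontal lines and whiskers, mean and SD) for mutants and controls, in percent of nuclei with at least 3000 UMIs, of all kept nuclei and of nuclei with at least 4 *Gad1* and *Gad2* UMIs. Mutants sit higher in the left panel (8.41% against 7.47%), while in the right panel the controls have the higher mean (34.7% against 32.3%), and the groups overlap in all panels.

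The make-up of the population varied widely from mouse to mouse, and no cluster differed between genotypes after correction over the 22 clusters (smallest adjusted p = 0.143, exact permutation tests; 4 had an unadjusted p under 0.05), except cluster 20 when mutant 4 was left out (adjusted p = 0.0476, exact permutation). The cortical interneuron-like cluster 7 made up a median of 3.36% of the members in mutants, from 0.910% to 6.04%, and of 11.8% in controls, from 2.81% to 14.1%. Most mutants were below most controls, with overlap (exact permutation p = 0.0195, adjusted 0.143). Each mutant was below its control of the same age, closest in mutant 5 (5.51%) and control 6 (5.85%). The tests of the clusters did not use this match in age. The striatal-like cluster 10 went the other way, with means of 4.16% ± 1.82 in mutants and 1.77% ± 1.59 in controls (exact permutation p = 0.0368, adjusted 0.202, n = 6 each). The Gata-Tal-like cluster 16 was at 1.07% ± 0.538 in mutants and 2.01% ± 0.494 in controls (exact permutation p = 0.0130, adjusted 0.143, n = 6 each). Cluster 20 with *Avp* and *Vip* was at 0.756% ± 0.595 and 0.165% ± 0.162 (exact permutation p = 0.0173, adjusted 0.143, n = 6 each), from 26 mutant and 6 control nuclei. Cluster 6 varied within controls alone from 0% (control 3) to 15.3% (control 1). A count of 0 among the 533 members of control 3 allows a share of up to 0.563%.

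**Figure D3:**
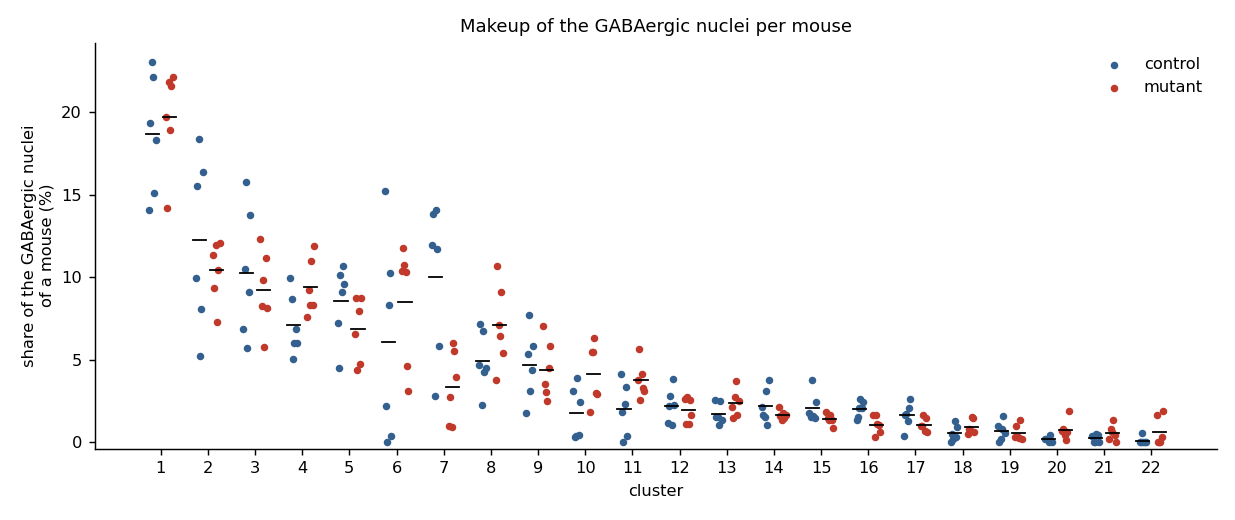
Share of each of the 22 clusters among the GABAergic neurons of each mouse (vertical axis, percent of members; points, mice; short lines, means), mutants and controls side by side along the horizontal axis. Cluster 7 sits lower in mutants (median 3.36%) than in controls (median 11.8%), and mice of the same genotype are spread widely in nearly all clusters.

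The share of neurons with a regional, transmitter or peptide gene was compared in the same way. Each member was thinned to 3000 UMIs, and none of 32 genes differed between genotypes after correction (lowest adjusted p = 0.302, exact permutation tests; 4 had an unadjusted p under 0.05). *Sox14* was found in 5.74% ± 1.05 of mutant and 8.35% ± 2.44 of control members (exact permutation p = 0.0411, n = 6 each). *Pvalb*, a calcium-binding protein of fast-firing neurons, was found in 4.70% ± 1.23 and 6.56% ± 1.01 (exact permutation p = 0.0238, n = 6 each). *Cck* was in 4.42% ± 2.10 against 7.00% ± 1.59 (exact permutation p = 0.0455, n = 6 each) and *Drd2* in 6.11% ± 0.799 against 4.84% ± 0.778 (exact permutation p = 0.0260, n = 6 each). *Slc32a1* itself was found in 47.7% ± 4.43 and 50.7% ± 4.56 (exact permutation p = 0.310, n = 6 each).

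Few genes differed between mutant and control neurons. The UMIs of each gene were summed over the members of a mouse and tested with edgeR's quasi-likelihood test, with Benjamini-Hochberg adjustment over all genes tested. Of 14454 genes, 8 were higher and 19 lower in mutants at an adjusted p of 0.05, which is 0.187% of the genes. At an unadjusted p under 0.05 the share was 10.8% (1555 genes). DESeq2 called 123 genes on the same counts, all 27 among them, edgeR with the age to the day as a block called 47, 24 of them among the 27, and without a block the count ran from 4 (without control 5) to 29 (without mutant 4) when 1 mouse was left out. The 6 mutants and 6 controls did not overlap in 20 of the 27 called genes, and in 0.733% of all genes tested. In such sums fewer cells of a type and less RNA per cell cannot be told apart. The levels below are CPM scaled by edgeR's TMM factors, which correct for differences in composition between libraries, and the values per mouse are drawn in the plot of the named genes.

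The lower gene with the smallest p was *Kcns3* (chr12:11090202-11151056 in GRCm38, minus strand), which encodes a modifier subunit that joins Kv2 channels. It stood at 30.3, 35.4 and 40.6 CPM in mutants (lowest, median and highest of 6) and at 51.9, 57.3 and 60.9 CPM in controls. Every mutant was below every control, a 1.58-fold lower mean (log2 fold change -0.66, SE 0.0727, adjusted p = 0.000726, edgeR). *Kcnab3* (chr11:69326258-69333042, plus strand), a beta subunit of Kv channels, was at 25.5, 32.1 and 37.5 CPM in mutants and 43.0, 48.6 and 56.2 CPM in controls. The groups did not overlap (log2 fold change -0.62, SE 0.0957, adjusted p = 0.0235, edgeR). Of 13 genes of the Kv1 to Kv4 families, a list without these modifiers, 0 were called with edgeR (4 higher and 4 lower at an unadjusted p under 0.05). Over all genes 0.187% were called and 10.8% had an unadjusted p under 0.05. The median log2 fold change of the 13 genes was -0.02. The ends of the list were *Kcnc2* at -0.50 (adjusted p = 0.118) and *Kcnd3* at 0.32 (adjusted p = 0.155, edgeR), genes of pore subunits.

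Some transcriptional regulators were lower too. They were named by the rule for called genes and do not form a list. Of the 6 tested genes of the cortical interneuron list 0 were called, against 0.187% of all genes. Their median log2 fold change was -0.02, with 1 higher and 0 lower at an unadjusted p under 0.05 (edgeR), against 10.8% of all genes. The rule had limited *Lhx6* and *Adarb2* of that list, and a list of such a size would rarely hold a call, so the absence says little. *Satb1* (chr17:51736187-51833290, minus strand), a chromatin organiser needed for the maturation of *Sst* interneurons, was at 24.5, 37.2 and 42.4 CPM in mutants and 47.2, 65.4 and 74.1 CPM in controls, without overlap (log2 fold change -0.83, adjusted p = 0.0240, edgeR). *Maf* (chr8:115682942-115707794, minus strand), a factor of interneurons born in the medial ganglionic eminence, was at 12.1, 19.1 and 24.1 CPM in mutants and 26.3, 35.4 and 42.8 CPM in controls. Again no mutant reached the lowest control (log2 fold change -0.91, adjusted p = 0.0240, edgeR). *Eya4* (chr10:23102963-23350786, minus strand), a transcriptional coactivator, had the lowest log2 fold change of the called genes, -1.69 (SE 0.330, adjusted p = 0.0497, edgeR), from 6.09, 8.30 and 22.0 CPM in mutants and 11.2, 34.0 and 47.6 CPM in controls. Mutant 4, the highest of the mutants, lay inside the range of the controls. *Tshz3*, a zinc finger factor, had a log2 fold change of -0.70 (adjusted p = 0.0240, edgeR).

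The other lower genes were of mixed kinds. *Nars*, the cytoplasmic asparaginyl-tRNA synthetase, differed little but evenly, at 73.5, 77.2 and 78.2 CPM in mutants and 85.8, 93.9 and 99.5 CPM in controls (log2 fold change -0.30, adjusted p = 0.0240, edgeR). *Btn2a2*, a butyrophilin gene with few UMIs, was at 0.870, 1.06 and 1.43 CPM against 1.90, 2.78 and 4.46 CPM (log2 fold change -1.42, adjusted p = 0.0251, edgeR). The non-coding *Gm26633* (chr7:79018053-79053323, minus strand) was at 11.3, 11.8 and 13.1 CPM against 16.3, 18.8 and 25.4 CPM (log2 fold change -0.72, adjusted p = 0.0169, edgeR). In all of these the groups stayed apart. The same was true of *Abtb2*, *A430106G13Rik*, *Gm28175* and *Manba*, the gene of the lysosomal beta-mannosidase, with log2 fold changes of -0.73, -0.56, -0.84 and -0.43 and adjusted p-values of 0.0240 to 0.0251 (edgeR). *A430106G13Rik* lies inside the longer *Gm4258* on the same strand, so their UMIs may not be told apart. The other 7 called genes, 6 lower and 1 higher, had log2 fold changes from -0.81 to 0.36 and adjusted p-values from 0.0326 to 0.0406 (edgeR).

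The higher genes were fewer. *Stac* (chr9:111561437-111690348, minus strand), the gene of an adaptor protein of L-type calcium channels, stood at 55.5, 60.6 and 70.0 CPM in mutants and 37.0, 39.3 and 43.4 CPM in controls. All mutants exceeded all controls, a 1.52-fold higher mean (log2 fold change 0.60, SE 0.0678, adjusted p = 0.000726, edgeR). Of its 3741 UMIs, 11.2% came from the 24 nuclei of the Purkinje-like cluster 22, 21 of them from mutants and 3 from controls, and without that cluster *Stac* was not called (log2 fold change 0.44, adjusted p = 0.195, edgeR). With members thinned to 3000 UMIs *Stac* was not called either (0.36, adjusted p = 0.152, edgeR). *Pdgfd* (chr9:6168584-6378850, plus strand), a ligand of the PDGF receptor beta, was at 6.99, 9.63 and 12.1 CPM in mutants and 3.87, 4.79 and 6.27 CPM in controls, also without overlap (log2 fold change 0.95, SE 0.166, adjusted p = 0.0259, edgeR). *Strip2* and *Katnal2*, genes of a striatin-interacting protein and a katanin-like protein, had log2 fold changes of 0.58 and 0.45 (adjusted p = 0.0382 for both, edgeR), and without cluster 22 *Strip2* was not called either (0.44, adjusted p = 0.130, edgeR). *Foxp2* and *Pbx3*, of the list of telencephalic factors but also high in some Gata-Tal-like clusters, were called at 0.43 and 0.33 (adjusted p = 0.0382 and 0.0428, edgeR). Each had overlap between the groups.

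*Pomc* (chr12:3954951-3960642, plus strand), the precursor of melanocortins and beta-endorphin, had the largest rise. It was at 2.45, 11.2 and 20.0 CPM in mutants and 1.80, 2.43 and 3.61 CPM in controls (log2 fold change 2.17, SE 0.361, adjusted p = 0.0240, edgeR). Only mutant 2 lay within the range of the controls. The members held 544 UMIs of *Pomc* in 187 nuclei, of which 100 were from mutants and 87 from controls. Of these nuclei 6 held 10 or more UMIs, all of them in cluster 4 and from 5 of the 6 mutants. They accounted for 351 of the UMIs, and the highest nucleus held 127. No control nucleus reached 10 UMIs. The call was lost with *Rgs9* at 0 (log2 fold change 1.33, adjusted p = 0.464, edgeR) and with no oligodendrocyte UMI (2.00, adjusted p = 0.156, edgeR).

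Several calls were lost when 1 mouse was left out. When each mouse was left out in turn, *Strip2* was called in 1 of the 12 fits (adjusted p from 0.0350 to 0.0999, edgeR), *Katnal2* and *Eya4* in 2 each, and *Btn2a2* and *Pdgfd* in 5 each. *Kcns3*, *Stac* and *Gm26633* were called in all 12. With members thinned to 3000 UMIs *Kcns3* was still called (adjusted p = 0.0485, edgeR), while *Stac* and *Gm26633* were not (adjusted p = 0.152 and 0.204, edgeR).

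**Figure D4:**
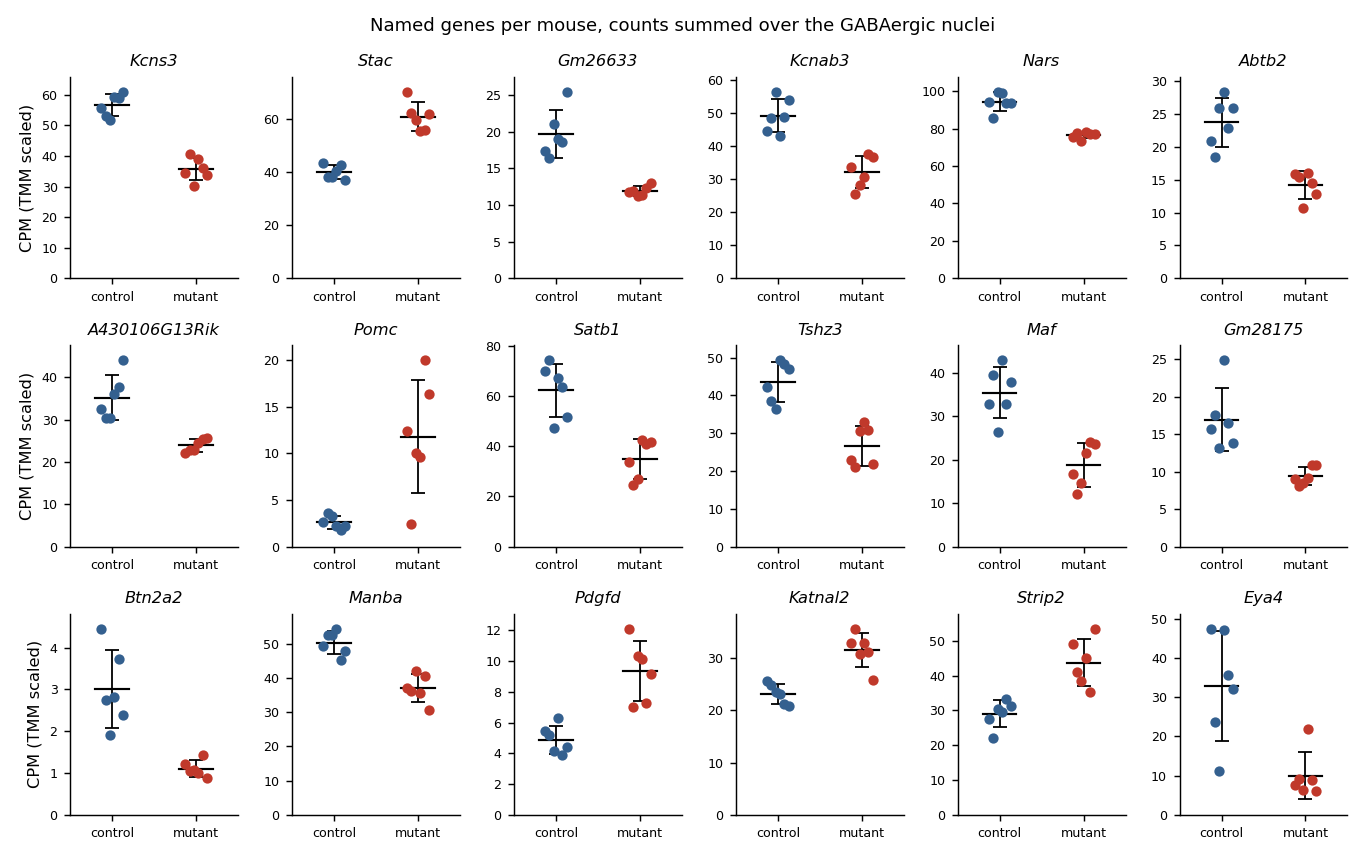
Level of the 18 named genes in the GABAergic neurons of each mouse (vertical axes, CPM scaled by TMM factors; points, mice; horizontal lines and whiskers, mean and SD of 6), mutants beside controls. *Kcns3* (30.3 to 40.6 against 51.9 to 60.9 CPM) and *Stac* (55.5 to 70.0 against 37.0 to 43.4 CPM) show separate groups, while *Pomc* and *Eya4* each have 1 mutant in the range of the controls.

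The called genes were not spread evenly over the population. All 19 lower genes were above the members' mean in cluster 7, as were 35.0% of all 14454 genes tested. Of the 19, 15 had it among their 3 highest clusters, against 7.92% of all genes tested. All 8 higher genes were below the mean there. Cluster 7 held 75.1% of the *Eya4* UMIs of the members, 46.3% of those of *Maf* and 42.2% of those of *Satb1*. *Kcns3* was highest in cluster 15 (393 CPM) and was also high in clusters 7 (148 CPM), 5 (143 CPM) and 14 (118 CPM). *Stac* was highest in clusters 22 (785 CPM), 21 (544 CPM) and 17 (335 CPM), and was at 5.38 CPM in cluster 7. *Pdgfd* was highest in the astrocyte-like cluster 13, at 79.9 CPM, which held 27.2% of its UMIs, and without the nuclei that Scrublet marked its log2 fold change was 0.72 (adjusted p = 0.142, edgeR).

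Fewer genes were called when cluster 7 or all 7 clusters were left out, while 30 were without cluster 22, 24 of them among the 27. Without cluster 7, 1 gene was called: *Stac*, at a log2 fold change of 0.50 (adjusted p = 0.0448, edgeR). Without all 7 clusters that went against the label, 0 of 14108 genes were called with edgeR, and 6.1% (860 genes) had an unadjusted p under 0.05. Of the 27 called genes 26 could then be tested. Their direction held in 25, with a median ratio of 0.635 to the log2 fold change over all members, and 18 kept an unadjusted p under 0.05. *Eya4* was at -0.04, *Satb1* at -0.16 and *Tshz3* at 0.027, while *Kcns3* was at -0.48 (adjusted p = 0.180), *Stac* at 0.38 (0.747) and *Pomc* at 2.25 (0.180, all edgeR). These ways of leaving out nuclei were chosen after the clusters had been seen.

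**Figure D5:**
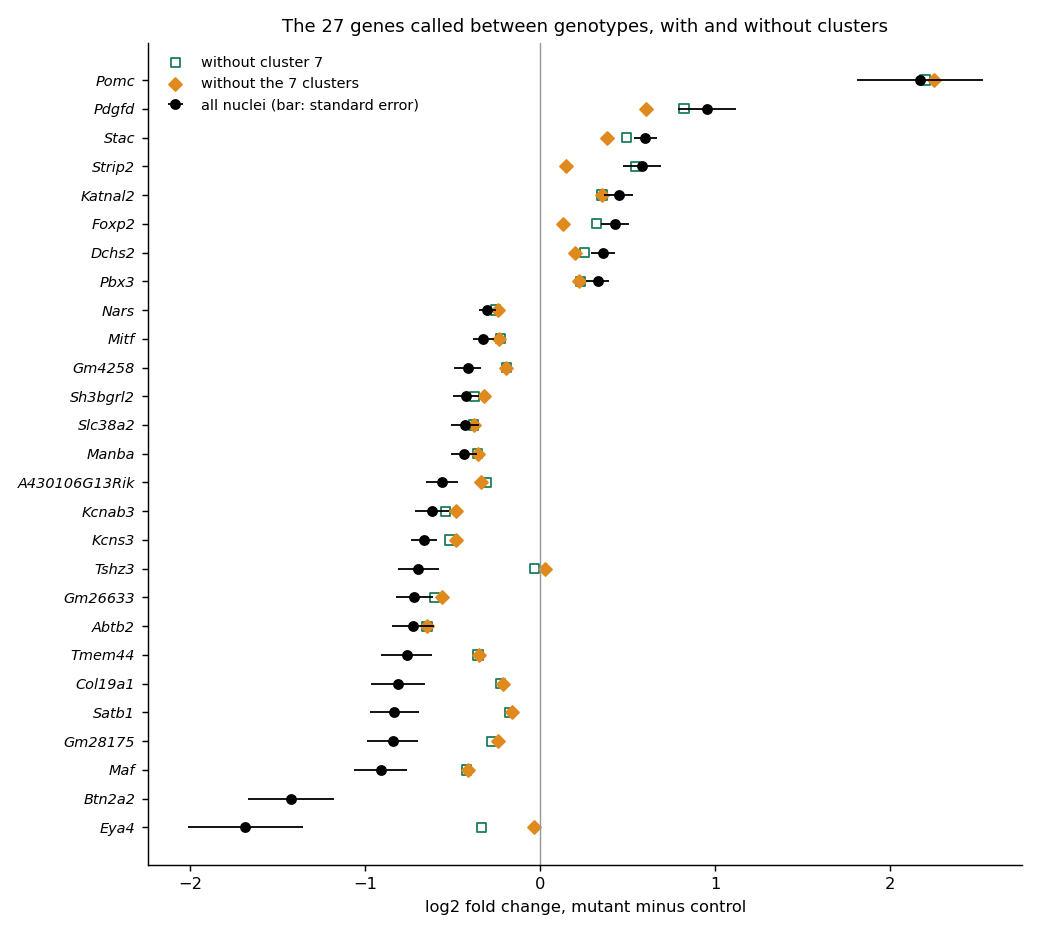
Log2 fold change, mutant over control, of the 27 called genes (horizontal axis; points with SE for all 7003 nuclei, other points without cluster 7 and without the 7 clusters that went against the label). Most points move toward 0 as nuclei are left out, *Eya4* from -1.69 to -0.04, while *Pomc* lies at 2.17 with all nuclei and at 2.25 without the 7 clusters, where it is not called.

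Within single large clusters few genes were called. In cluster 1, *Sorcs1*, a sorting receptor gene, was at 336, 417 and 524 CPM in mutants and 260, 289 and 337 CPM in controls, which touched at their ends (log2 fold change 0.53, adjusted p = 0.0293, edgeR). In the thalamic reticular-like cluster 5, *Slit2*, the axon guidance ligand, was at 189, 220 and 345 CPM in mutants and 132, 146 and 165 CPM in controls, without overlap (log2 fold change 0.69, SE 0.125, adjusted p = 0.0388, edgeR). Over all members *Slit2* was at -0.18 (adjusted p = 0.411, edgeR). *Sema3e*, a semaphorin gene, was at 186, 239 and 311 CPM in mutants and 277, 401 and 516 CPM in controls of the same cluster (log2 fold change -0.70, adjusted p = 0.0467, edgeR). In clusters 2, 3 and 4 edgeR called 0 genes, with 507, 396 and 372 at an unadjusted p under 0.05. These genes were named after their values were seen.

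No gene of GABA synthesis, release or uptake was called. With 0.187% of all genes called, a list of such a size would rarely hold a call, so the absence says little about it. All 9 genes of the list were tested, 0 were called with edgeR (1 higher and 2 lower at an unadjusted p under 0.05), and their median log2 fold change was 0.00 (-0.00 over all genes). *Gad1* was at 332, 352 and 406 CPM in mutants and 362, 398 and 422 CPM in controls (log2 fold change -0.14, adjusted p = 0.411, edgeR), though its counts had helped to choose the nuclei. *Slc32a1* was at 168, 218 and 271 CPM against 205, 231 and 306 CPM (log2 fold change -0.09, adjusted p = 0.811, edgeR). Both groups overlapped throughout. Of 16 tested GABA receptor subunit genes 0 were called (median 0.09, 3 higher and 1 lower at an unadjusted p under 0.05), and of 8 genes of glycine transmission 0 (median 0.07, 0 at an unadjusted p under 0.05). The same held for 17 ionotropic (median 0.02, 4 higher and 2 lower at an unadjusted p under 0.05) and 7 metabotropic glutamate receptor genes (median 0.17, 1 higher and 1 lower). Of 15 voltage-gated calcium channel genes 0 were called (median 0.10, 13 above 0, with 4 higher and 1 lower at an unadjusted p under 0.05, against 10.8% over all genes), and of 13 sodium and HCN channel genes 0 (median -0.00, 2 higher and 2 lower). Of 20 genes of vesicles and release 0 were called (median -0.04, 0 higher and 3 lower at an unadjusted p under 0.05). *Vamp1* and *Cplx1*, which serve fast transmitter release, came nearest at -0.34 and -0.31 (adjusted p = 0.0756 and 0.119, edgeR).

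The peptide and regional lists held 3 called genes, where over all genes 0.187% were called and 10.8% had an unadjusted p under 0.05. Of 22 tested neuropeptide genes 1 was called (*Pomc*), with a median of 0.24 and 4 higher and 1 lower at an unadjusted p under 0.05. *Avp* was at 5.64, 11.9 and 16.8 CPM in mutants and 2.09, 3.33 and 11.0 CPM in controls (log2 fold change 1.33, adjusted p = 0.136, edgeR), and 8 mutant and 2 control nuclei held 10 or more of its UMIs. Of 16 telencephalic factors 2 were called, both higher (*Foxp2* and *Pbx3*), with a median of 0.13 (0.11 without the 7 clusters) and 5 higher and 0 lower at an unadjusted p under 0.05. These 2 genes were not limited to telencephalic-like clusters. *Foxp2* was at 657, 59.8, 16.7 and 634 CPM in the Gata-Tal-like clusters 3, 9, 16 and 17. In the telencephalic-like clusters 11 and 18 it was at 6.66 and 2160 CPM. *Pbx3* was at 267, 219, 386 and 349 CPM in the former clusters and at 250 and 1292 CPM in the latter. Of 10 Gata-Tal factors of the midbrain and pons 0 were called, with a median of -0.20 0 higher and 1 lower at an unadjusted p under 0.05, and 1 of 10 at a log2 fold change above 0. Of 4 tested hypothalamic factors 0 were called (median -0.25, 1 higher and 2 lower at an unadjusted p under 0.05), and of 3 tested hindbrain factors 0 (median -0.07, 0 at an unadjusted p under 0.05). The 7 striatal markers had a median of 0.55, 0 called and 3 higher at an unadjusted p under 0.05. Without the 7 clusters their median was 0.23. The striatal markers summed to 664 to 1251 CPM in mutants and 634 to 1005 CPM in controls, and *Rgs9* itself was held low by the limit.

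Of the genes of the disease and of the response to it, *Pdgfd* was the called one. That call was lost without the nuclei that Scrublet marked (log2 fold change 0.72, adjusted p = 0.142, edgeR). The astrocyte-like cluster 13 held 27.2% of the *Pdgfd* UMIs. *Pdgfb*, the altered gene, was at 2.84, 3.79 and 4.81 CPM in mutants and 1.39, 3.79 and 5.51 CPM in controls (log2 fold change 0.08, adjusted p = 0.954, edgeR), and the altered motif cannot be seen in UMIs per gene. Of the 6 genes of primary familial brain calcification 0 were called, with 0 at an unadjusted p under 0.05 (edgeR). Over all genes 0.187% were called and 10.8% had an unadjusted p under 0.05, so lists of such sizes would rarely hold a call. The phosphate exporter gene *Xpr1* was at 208 ± 15.1 CPM and *Slc20a2*, which encodes a phosphate importer, at 68.1 ± 4.90 CPM (SD, n = 12). Of 6 tested PDGF genes 1 was called (*Pdgfd*), with 2 higher and 0 lower at an unadjusted p under 0.05. Of 20 interferon and MHC class I genes only 8 had enough UMIs to be tested, and 0 were called, with 0 at an unadjusted p under 0.05. Of 16 tested immediate early genes 0 were called, with 0 at an unadjusted p under 0.05 (*Fos* -0.05, *Egr1* -0.25). The lists of hypoxia and glycolysis (18 tested, median -0.01, 3 higher and 1 lower at an unadjusted p under 0.05) and of stress (12 tested, median -0.12, 0 at an unadjusted p under 0.05) also held 0 called genes (all edgeR).

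Genes of other cell types were present at levels that overlapped between the genotypes, and their part in the calls was not tested. The 6 oligodendrocyte genes summed to 213 to 301 CPM in mutants and 201 to 274 CPM in controls, the 5 astrocyte genes to 152 to 241 and 151 to 230 CPM, the 5 microglial genes, with *Csf1r* at 0 by the rule, to 39.3 to 51.7 and 38.3 to 54.6 CPM, and the 4 vascular genes to 4.95 to 8.47 and 4.09 to 8.70 CPM. The 7 cortical interneuron genes summed to 248 to 421 CPM in mutants and 247 to 509 CPM in controls. The rule also limited *Mog*, *Mag* and *Mobp* of the oligodendrocyte genes and *Lhx6* and *Adarb2* of the interneuron genes. These sums were therefore partly set by the selection. None of the genes of these lists was called, where over all genes 0.187% were called and 10.8% had an unadjusted p under 0.05. At that level 1 astrocyte, 1 microglial and 1 cortical interneuron gene were higher and 0 lower (edgeR). The log2 fold change was above 0 in 5 of 6 oligodendrocyte and 4 of 5 astrocyte genes. It was above 0 in 3 of 4 microglial, 3 of 6 cortical interneuron and 0 of 1 vascular genes tested.

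Whether the genotype acted differently on these neurons than on others was tested as a difference of effects, with the mouse as a block. Against the *Rgs9* nuclei 244 of 14898 genes differed (79 with a higher and 165 with a lower log2 fold change in the members, 1.64%). Without control 2, which had 7 *Rgs9* nuclei, 361 did, and without control 6 98 did. A gene could enter this test on its UMIs in the members alone. The 244 therefore include genes with too few UMIs in the *Rgs9* nuclei, *Pomc* and *Eya4* among them. Against the *Slc17a6* nuclei 52 of 16015 differed (28 and 24, 0.325%), and between 8 (without control 4) and 81 (without control 1) when 1 mouse was left out. Among the named genes, *Stac* was at 0.60 in the members and -0.19 in the *Slc17a6* nuclei, a difference of 0.78 (adjusted p = 0.0198, edgeR). It was at 0.69 in the *Rgs9* nuclei, where it was not called (adjusted p = 0.447, edgeR), and the difference from the members was -0.09 (adjusted p = 0.960, edgeR). *Gm26633* differed from the *Slc17a6* nuclei by -0.98 (adjusted p = 0.0447, edgeR). *Pomc* differed from them by 1.93 (adjusted p = 0.0290, edgeR) and *Eya4* by -2.19 (adjusted p = 0.00150, edgeR). *Kcns3* was at -0.18 there, and its difference of -0.50 was not called (adjusted p = 0.353, edgeR). *Pomc*, *Eya4* and *Kcns3* had too few UMIs in the *Rgs9* nuclei to be tested there, so no comparison with those nuclei is read for them. In their own tests the *Rgs9* nuclei had 167 higher and 79 lower genes of 12152, and the *Slc17a6* nuclei had 0 of 16485 with edgeR, 1087 of them at an unadjusted p under 0.05.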

How the data were processed

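Single-nucleus RNA-seq libraries (10x Genomics 5′ chemistry) of the deep brain of 12 mice were analysed. Per the methods and the submitters' processing notes the authors aligned the reads to mm10 with Cell Ranger 5.0.1, introns included (bcl2fastq 2.20.0.422 among the tools named), and deposited raw UMI counts per gene and barcode, for the barcodes that Cell Ranger had called as nuclei. Of the 32288 genes listed, 32235 were found by identifier in GENCODE M21 (GRCm38).

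The members, gene lists and markers were chosen with earlier results of these data known. Counts of members were summed per library and tested with edgeR 4.0.16 (quasi-likelihood, TMM, filterByExpr, limma 3.58.1, R 4.3.3) and, as an alternative, DESeq2 1.42.0. Differences between classes had the library as a block. Shares were compared by exact permutation tests with scipy 1.17.1, and p-values were Benjamini-Hochberg adjusted (threshold 0.05). In its single-nucleus data the study compared clusters, with a Wilcoxon test over nuclei. Here the genotypes were compared, with mice as the replicates. The 95% intervals (Clopper-Pearson, scipy 1.17.1) and limits of a count of 0 (3 counts) cover counting error only.

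For clustering, the full counts of each member were scaled to 1000 and log-transformed, without thinning. Thinning to 3000 UMIs served the shares of nuclei with a gene and the alternative on thinned counts. 2000 variable genes were chosen, of which 1988 were used, with 30 principal components, 20 neighbours and the Leiden method at a resolution of 0.6 (scanpy 1.11.5, scikit-learn 1.9.0, numpy 2.4.6, pandas 2.3.3, Python 3.11.15). Cluster folds had 10 CPM added to each level. Scrublet was run per library and its doublets were kept, except in the alternative without them. Figures were drawn with matplotlib 3.10.9.

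The text names the 15 called genes with the smallest p, the 5 called genes with the largest rise and the 5 with the largest fall, called genes of the lists and the 5 leading genes of each cluster; some of these genes are not reported here. The scripts were tested on simulated data: of 200 genes changed by 1 on the log2 scale among 14316 in the members, edgeR found 180 with 10 false calls, and DESeq2 found 181 with 16. In the tests of a difference between classes edgeR found fewer of 200 such genes. It found 127 with 17 false calls against the *Rgs9* nuclei and 160 with 11 against the *Slc17a6* nuclei. Alternatives were normalization, filters, replicate and age blocks, other gates, thinning, single mice left out and, chosen after seeing the data, clusters left out or taken alone.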

Additional observations from a re-analysis of the deposited data

Results flagged for a closer look

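*Eya4* stood at 22.0 CPM in the members of mutant 4, while the mutants had a median of 8.30 CPM and the next highest was at 9.09 CPM. The gap was 0.811 of the range of the 6 mutants, above Dixon's limit for 6 samples, which chance exceeds in about 1 of 20 groups. Cluster 7, which held 75.1% of the *Eya4* UMIs of the members, varied in share between mice as well, and its part in this value was not tested.

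The log2 fold change between genotypes differed between the members and the *Slc17a6* nuclei for 5 named genes, each tested as a difference with edgeR. These genes had been named because they were called in the members. For *Pomc* the difference was 1.93 from the *Slc17a6* nuclei (adjusted p = 0.0290), and 6 mutant nuclei held 351 of its 544 UMIs in the members. For *Eya4* the difference was -2.19 from the *Slc17a6* nuclei (adjusted p = 0.00150), where *Eya4* was at 0.49 without being called. In the members without cluster 7 *Eya4* was at -0.33 and not called (adjusted p = 0.840, edgeR). *Stac* differed by 0.78 (adjusted p = 0.0198; in the members alone it was not called without cluster 22), *Gm26633* by -0.98 (adjusted p = 0.0447) and *Kcnab3* by -0.35 (adjusted p = 0.0296), all from the *Slc17a6* nuclei. *Kcnab3* was at -0.28 in those nuclei and not called, so it had the same direction there.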

How the results depend on the processing

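The count of called genes changed with the processing. Beside the 27 genes of edgeR, DESeq2 called 123, which included all 27, no filter on low counts gave 41, the age block 47, at least 8 *Gad1* and *Gad2* UMIs 6, no oligodendrocyte UMI 14, thinning to 3000 UMIs 5, and leaving out Scrublet doublets 17. RLE size factors gave 27 and *Rgs9* at 0 gave 19. Leaving out 1 mouse gave 4 to 29 genes: 4 without control 5, 5 without control 4, 7 without mutant 1, 9 without mutant 3, 10 without control 2, 11 without mutant 2 and 17 without control 6, the male. All 27 genes kept their direction each time, and *Kcns3*, *Stac* and *Gm26633* were called in all 12 of these fits. *Kcnab3* was called in 11, *Abtb2* in 10, *Pomc* in 9, *Nars* and *Tshz3* in 8, *A430106G13Rik*, *Satb1*, *Maf*, *Gm28175* and *Manba* in 7, *Btn2a2* and *Pdgfd* in 5, *Katnal2* and *Eya4* in 2, and *Strip2* in 1. Of the alternatives chosen after seeing the data, leaving out the 7 clusters gave 0 (860 genes at an unadjusted p under 0.05), leaving out cluster 7 gave 1, leaving out cluster 22 gave 30 (without *Stac* and *Strip2*), and clusters 1 to 5 alone gave 1, 0, 0, 0 and 2. With the 7 clusters left out *Tshz3* turned its direction, to 0.027. Within clusters 1 to 5 alone 18 of 20, 19 of 22, 10 of 18, 6 of 10 and 16 of 17 of the called genes that could be tested kept their direction. Fewer nuclei entered these fits, and why each call was lost was not tested.

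With the replicate number as a block 62 genes were called (22 higher and 40 lower), 26 of them among the 27. Each mutant had a control of its age to the day, of the same number for mice 1 to 4 only, but no label gives a shared litter, batch or day, and the numbers were not taken as pairs: mice of the same number correlated at -0.0346 to 0.223 in their deviations, 3 of 6 over 0.1, and 2 of 6 mutants and 2 of 6 controls correlated best with their own number.

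The difference in the share of members (0.944 points) was 0.489 over all kept nuclei (exact permutation p = 0.216), -2.41 among *Gad1* and *Gad2* nuclei (p = 0.459), 0.0910 with at least 8 *Gad1* and *Gad2* UMIs (p = 0.807), 0.508 with *Rgs9* at 0 (p = 0.147) and 0.982 without the 7 clusters (p = 0.0758), and it ran from 0.700 to 1.17 when 1 mouse was left out. Against the *Rgs9* nuclei the count of 244 was 215 with DESeq2 and 721 without a filter, and 98 (without control 6) to 361 (without control 2) when 1 mouse was left out. Against the *Slc17a6* nuclei the count of 52 was 78 with DESeq2 and 227 without a filter, and 8 (without control 4) to 81 (without control 1). The number of clusters that differed in share was 0 to 1 when 1 mouse was left out, 1 only without mutant 4 (cluster 20, adjusted p = 0.0476), and 0 at resolutions of 0.3 and 1.2. The count of genes whose share of nuclei differed was 0 in all alternatives run. For single genes and clusters, 393 values kept their side of the threshold, 159 lost the call, 1 gained it and 1 turned its direction, fits within single clusters not counted. The cause was not tested.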
